A study of Mus musculus with 15 samples.

Results

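Gene expression was compared between miR-210 knockout (KO) and wild-type (WT) brain cells carrying the receptor PDGFRβ, both taken 24 h after hypoxia-ischemia (HI) in newborn mice. The comparison used 8 of the 15 libraries of the series, KO HI 1, 2, 3 and 4 against WT HI 1, 2, 4 and 5, chosen by the genotype and treatment that the labels give. It covered every gene with values: 17892 lines of the table held values, and 14853 genes passed the filter on low counts and were tested. The other 7 libraries came from sham-treated mice, 3 WT and 4 KO, and were used for the spread between replicates and for the same genotype difference without injury. The form of the knockout allele, the age in days, the sex of the mice and the way in which the cells were isolated are not given in the sources used here. Nor do the labels say that each library came from its own mouse, so the p-values measure the spread between these libraries, which may be technical.

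A microRNA guides an Argonaute protein to messenger RNAs whose 3′ untranslated region (3′ UTR) pairs with its seed, a short stretch near the 5′ end of the microRNA, and lowers their stability or translation. miR-210 is known for being switched on by the hypoxia-inducible factors when oxygen is short. PDGFRβ is the receptor through which pericytes, the mural cells of capillaries, answer endothelial PDGF-B, and vascular smooth muscle cells and perivascular fibroblasts carry it too. After ischemia, brain endothelial cells display selectins that catch leukocytes, and microglia, the resident macrophages of the brain, take up debris and digest it in lysosomes.

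The mature strands of the deleted microRNA are shown first, because the seed (bases 2 to 8, in capitals) fixes which transcripts it could pair with. They come from RefSeq on build GRCm38.p6, minus strand, with the 3p strand at chr7:141221407-141221428 and the 5p strand at chr7:141221445-141221466.
mmu-miR-210-3p: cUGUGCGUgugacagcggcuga
mmu-miR-210-5p: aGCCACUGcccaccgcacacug
Of 27 tested genes on a list of published miR-210 targets, 6 held the letters ACGCACA, the complement of the 3p seed, in the annotated 3′ UTR. The sites of 4 of them are printed as windows of 29 bases from the GRCm38 genome with GENCODE M21 gene models, with the seed match in capitals, so that they can be set beside the expression values given later. Gpd1l, a glycerol-3-phosphate dehydrogenase-like enzyme, held 3 such sites, and the first and the second of them are shown, at chr9:114902208-114902236 and chr9:114900789-114900817 on the minus strand. The activin receptor gene Acvr1b held 1 at chr15:101212424-101212452 on the plus strand, the ephrin gene Efna3 held 1 at chr3:89314655-89314683 on the minus strand, and the ubiquitin ligase gene Kcmf1 held 1 at chr6:72842283-72842311 on the minus strand.
Gpd1l site 1: tacagacacacACGCACAtgagtgaatgt
Gpd1l site 2: acctcagtgaaACGCACActatatggagt
Acvr1b site: tccagactcaaACGCACAtagttcagtca
Efna3 site: ggacctatgcaACGCACAgacacttttgg
Kcmf1 site: atgtgcctcctACGCACAaagccagctct

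The targeted gene gave no check of the genotype labels: the table held 1 line for Mir210, and it was blank in all 15 libraries. The 8 HI libraries held between 16291948 and 18118697 expected counts. The KO HI libraries differed more among themselves than the WT HI libraries did, pairs of KO HI libraries having 44.59 to 175.2 units of chi-square per degree of freedom and pairs of WT HI libraries 11.26 to 46.69. KO HI 2 and KO HI 3 stood apart: their neuron markers averaged 3.90 and 5.68 on the log2(CPM + 1) scale, where CPM is the count relative to the TMM-scaled library total, against 1.33 to 1.61 in the other 6 HI libraries. The transthyretin transcript Ttr of the choroid plexus took 5.17% of all counts in KO HI 2. Results are therefore also given without KO HI 2 and KO HI 3 where that changed them, an alternative chosen after seeing the data.

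After HI, 16 of 16 microglia markers and 21 of 34 lysosomal genes were called higher in KO, and 12 of 20 endothelial markers, 7 of 20 pericyte markers, 5 of 15 smooth muscle markers and 12 of 24 basement membrane and matrix genes were called lower. No member of these last 4 lists was called without WT HI 1, and without KO HI 2 and KO HI 3 only 1 was in the fit of all groups, a basement membrane and matrix gene, whereas the 2 HI groups alone without those libraries gave 17 endothelial, 8 pericyte, 2 smooth muscle and 13 basement membrane and matrix calls. The selectin genes Sele and Selp and the cytokine gene Il6 were also lower. In a fit of all 15 libraries with the quasi-likelihood test of edgeR, 1844 genes differed at a Benjamini-Hochberg adjusted p under 0.05, which is 12.4% of the genes tested. Of these, 885 were higher in KO (5.96%) and 959 were lower (6.46%), and 840 differed at least 2-fold (455 higher, 385 lower). The lists above had called shares of 100% (microglia), 61.8% (lysosome), 60% (endothelial), 35% (pericyte), 33.3% (smooth muscle) and 50% (basement membrane and matrix). The median log2 fold change over all genes tested was 0.06. In 1541 of the called genes the 4 KO values and the 4 WT values did not overlap, whereas over all genes tested 21.4% did not overlap, 9.89% with KO higher and 11.5% with KO lower.

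The number of called genes depended on which libraries were in the fit. It was 481 without WT HI 1, 538 without WT HI 4, 558 without WT HI 5, 669 with KO HI 1 left out and 1028 with KO HI 3 left out; omission of KO HI 4 gave 2714 and that of KO sham 1 gave 3605. Without KO HI 2 and KO HI 3 it was 1275, of which 954 were higher and 321 were lower, so 74.8% were higher against 48% in the full fit. That share was 59.7% without KO HI 3 and 35% without KO HI 4. A fit of the 2 HI groups alone called 1846 genes, 1473 of them also called in the full fit. With the level of the microglia markers as a covariate 1 gene was called. With the level of the pericyte markers as a covariate 1848 genes were called, 60% of them higher, and 754 of these were also called in the full fit. Marker levels and genotype moved together in these libraries and cannot be told apart.

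**Figure D1:**
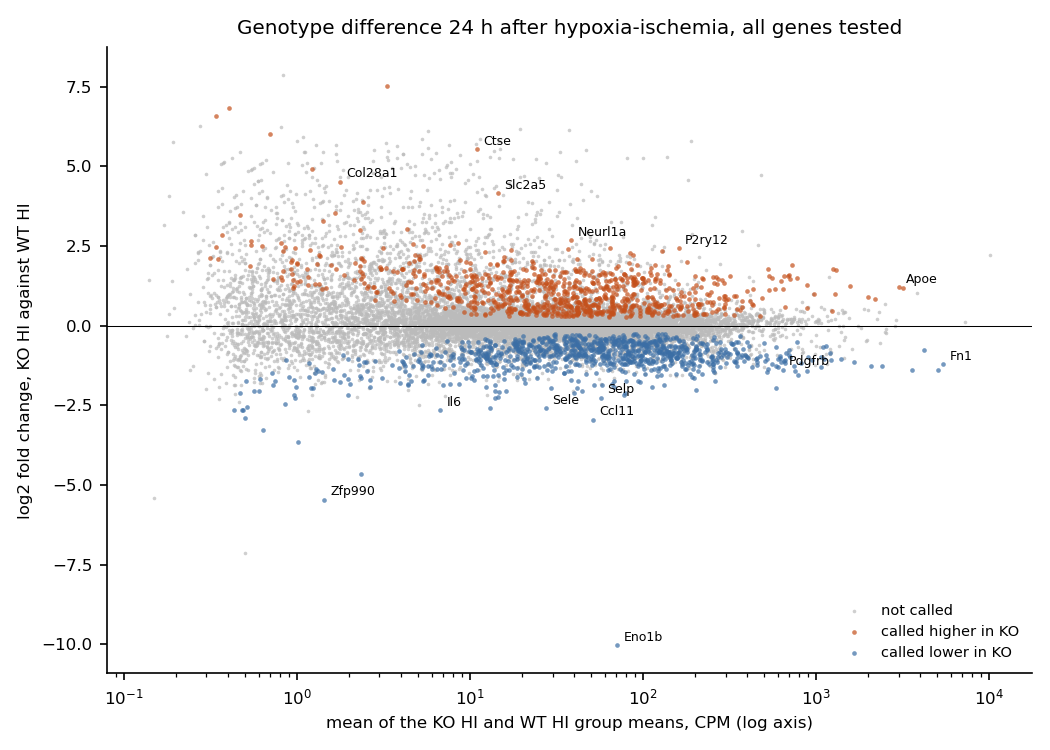
Log2 fold change of KO HI against WT HI for each of the 14853 genes tested, against the mean of the 2 group means in CPM on a log axis; called genes (adjusted p under 0.05 in edgeR) are colored by direction and 14 of the genes named in the text are labelled. Called genes lie on both sides over the whole range of levels, and Eno1b lies lowest, at a log2 fold change of -10.01.

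Of the 12 largest increases among called genes with at least 10 CPM in the higher group and no overlap, several were transcripts of microglia. In every sentence of this kind the values are CPM, in the order 1, 2, 4 and 5 for WT HI and 1, 2, 3 and 4 for KO HI. P2ry12, the ADP receptor by which microglia sense injury, was at 30.1, 106.2, 35.4 and 27.2 CPM in WT and at 450.4, 237.1, 177.8 and 221.8 CPM in KO. All 4 KO libraries lay above all 4 WT libraries, with WT HI 2 the highest of the WT group and KO HI 1 the highest of all. The log2 fold change was 2.45 ± 0.43 (SE; edgeR adjusted p = 0.00682), and the call was kept when any 1 of the 15 libraries was left out.

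Siglech, a sialic acid-binding lectin of microglia, followed the same order: 14.5, 41.4, 12.9 and 11.2 CPM in WT and 181.1, 88.5, 81.1 and 85.3 CPM in KO. WT HI 2 and KO HI 1 were again the highest of their groups, the groups did not overlap, and the log2 fold change was 2.45 (edgeR adjusted p = 0.00583). Slc2a5, the fructose transporter that marks microglia in the brain, was low in WT at 1.66, 1.88, 1.35 and 1.19 CPM and stood at 51.1, 26.3, 17.9 and 14.9 CPM in KO. Its log2 fold change was 4.17 (edgeR adjusted p = 0.00519), and neither call was lost when any 1 library was left out. The purinergic receptor P2ry13, the lectin Siglece and Hpgd, which breaks down prostaglandins, also rose, with log2 fold changes of 2.28, 2.30 and 2.39.

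Ctse, the aspartic protease cathepsin E, had the largest increase among called genes with an established symbol, at least 10 CPM in the higher group and no overlap. It was at 0.51, 0.68, 0.45 and 0.17 CPM in WT and at 36.6, 20.9, 27.2 and 1.12 CPM in KO. KO HI 4 was far below the other 3 KO libraries, yet above each WT library. The log2 fold change of 5.54 passed the test (edgeR adjusted p = 0.0229) and was lost in 4 of the 15 fits that left out 1 library, with adjusted p-values of 0.0591 without KO HI 1, 0.0760 without WT HI 1, 0.0734 without WT HI 4 and 0.0773 without WT HI 5. Without KO HI 2 and KO HI 3 it was 5.35 (adjusted p = 0.0603).

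Another set of large increases was highest in KO HI 3, the HI library with the highest neuron markers. Neurl1a, a ubiquitin ligase, was at 8.86, 18.9, 6.93 and 6.51 CPM in WT and at 56.5, 58.0, 120.5 and 31.5 CPM in KO (log2 fold change 2.69, edgeR adjusted p = 0.0301). Matk, a kinase that curbs Src family kinases, was at 1.77, 4.50, 1.52 and 1.81 CPM in WT and at 9.49, 12.95, 29.05 and 7.10 CPM in KO (log2 fold change 2.60, edgeR adjusted p = 0.0314). In both genes, and in Smim10l2a and the kinesin Kif21b, KO HI 3 was the highest library and the groups did not overlap. With KO HI 2 and KO HI 3 left out, the log2 fold changes of Neurl1a, Matk, Smim10l2a and Kif21b were 2.09, 1.79, 1.97 and 2.15, and the edgeR adjusted p-values were 0.143, 0.186, 0.110 and 0.0319. Neurl1a and Matk also lost their calls without WT HI 1, WT HI 4, WT HI 5, KO HI 1 or KO HI 3 (up to 0.0962 and 0.0996), and Smim10l2a without WT HI 1, WT HI 4, WT HI 5 or KO HI 3 (up to 0.0679). KO HI 1, with summed neuron markers of 50.58 CPM against 374.5 CPM in KO HI 2, was above KO HI 2 for Kif21b (241.3 against 164.2 CPM). For Neurl1a those libraries were close, and for Matk KO HI 1 was lower. WT HI 2 was the highest WT library for Neurl1a, Matk, Kif21b and the microglia markers. Summed neuron markers ran only from 55.64 to 59.18 CPM in WT HI. The part of neuron-derived RNA in these 4 differences was not tested.

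All 16 microglia markers were called higher in KO, with a median log2 fold change of 1.75 against 0.06 over all genes tested. Their mean level was 6.71 ± 0.66 (SD, n = 4) on the log2(CPM + 1) scale in WT and 8.58 ± 0.48 (SD, n = 4) in KO. Csf1r, the receptor on which microglia depend for survival, was at 412.1, 1034, 411.4 and 372.3 CPM in WT and at 3000, 1511, 1518 and 1711 CPM in KO, without overlap (log2 fold change 1.80, edgeR adjusted p = 0.00951). Cx3cr1, the fractalkine receptor, was at 199.5, 630.7, 213.8 and 181.6 CPM in WT and at 1746, 801, 985 and 1050 CPM in KO, without overlap (log2 fold change 1.90). The summed level of the markers ran from 2272 to 5885 CPM in WT HI and from 7447 to 16060 CPM in KO HI, so microglial RNA was present in libraries labelled as PDGFRβ-positive cells of both genotypes. In bulk RNA, a larger share of microglia and more of these transcripts per cell cannot be told apart. All 16 were still called without KO HI 2 and KO HI 3. Without WT HI 1, WT HI 4 or WT HI 5 in turn 10 were called, and Cx3cr1 had an adjusted p of 0.0528 without WT HI 1.

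**Figure D2:**
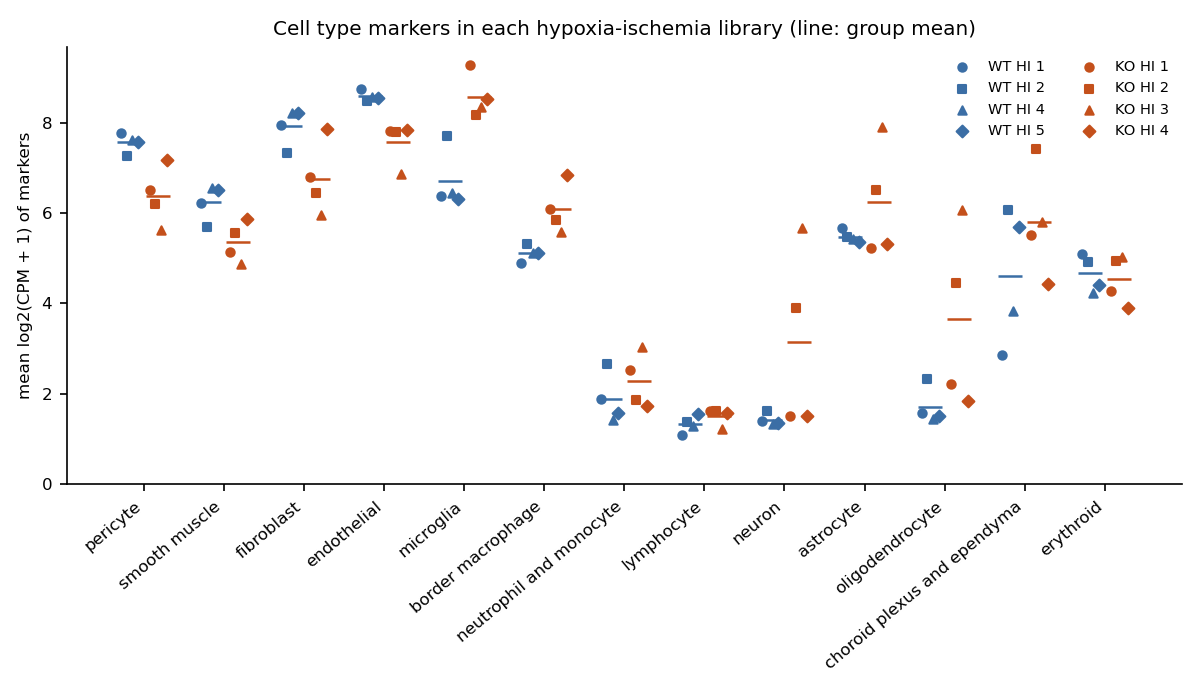
Mean log2(CPM + 1) of each cell type marker list (y axis) in each of the 8 HI libraries, with 1 symbol per library, WT HI in blue and KO HI in orange, and a line at the group mean. Microglia markers average 6.71 in WT HI and 8.58 in KO HI, endothelial markers average 8.59 and 7.58, and neuron markers are high in KO HI 2 and KO HI 3.

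Border macrophages are the phagocytes around vessels and in the meninges. Of 10 tested markers 6 rose and none fell, with a median log2 fold change of 1.05. Those called made up 60% of the list, against 5.96% called higher over all genes tested. Mrc1, the mannose receptor, was at 137.2, 194, 172.3 and 168 CPM in WT and at 418.7, 314.8, 261.4 and 692.5 CPM in KO, without overlap and with KO HI 4 the highest (log2 fold change 1.33, edgeR adjusted p = 0.0135). Pf4, a chemokine of these macrophages, was at 10, 13.7, 12.01 and 11.1 CPM in WT and at 27.6, 26.4, 20.9 and 51.6 CPM in KO (log2 fold change 1.43, edgeR adjusted p = 0.0168). Without WT HI 1 the list had 0 called members, and the adjusted p was 0.0549 for Mrc1 and 0.0635 for Pf4. The count was 1 without WT HI 4 or WT HI 5, 2 without KO HI 1 and 3 without KO HI 4.

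Markers of blood leukocytes were called at shares of 8.33% (neutrophil and monocyte) and 14.3% (lymphocyte), against 12.4% of all genes tested. Of 12 tested neutrophil and monocyte markers only the G-CSF receptor Csf3r was called, with a log2 fold change of 1.58, and its call was lost without WT HI 1, WT HI 4, WT HI 5 or KO HI 1 (adjusted p up to 0.0856). The count was 2 without KO sham 1 or KO sham 4. The neutrophil alarmin S100a8 was at 3.37, 9.24, 1.41 and 1.70 CPM in WT and at 8.65, 3.80, 15.01 and 3.35 CPM in KO. These values overlapped, and the log2 fold change of 0.97 did not pass (edgeR adjusted p = 0.361). Ly6g, which defines neutrophils, was at 0 in all 8 HI libraries. Among 7 tested lymphocyte markers Cd79b was called, with a log2 fold change of 1.44.

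Neuron, astrocyte and oligodendrocyte markers were highest in KO HI 2 and KO HI 3 and gave no call. Choroid plexus markers did not follow that order. On the log2(CPM + 1) scale they averaged 7.42 in KO HI 2, 6.07 in WT HI 2, 5.80 in KO HI 3 and 5.70 in WT HI 5. None of 15 neuron, 12 astrocyte, 12 oligodendrocyte and 10 choroid plexus markers passed in edgeR, with median log2 fold changes of 3.53, 1.61, 4.34 and 1.81. DESeq2 called 13 neuron, 1 astrocyte and 10 oligodendrocyte markers. The summed neuron markers ran from 55.6 to 59.2 CPM in WT HI and stood at 50.6, 374.5, 1446 and 61.5 CPM in KO HI 1, 2, 3 and 4, so 2 KO libraries lay in or near the WT range. Without KO HI 2 and KO HI 3 the 4 medians were 0.05, -0.19, 0.28 and -0.36. Leaving out KO sham 1 gave 10 called neuron and 7 called oligodendrocyte markers, leaving out KO HI 4 gave 4 neuron, 2 astrocyte and 2 oligodendrocyte markers, and leaving out KO sham 4 gave 2 neuron markers.

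Of 34 tested lysosomal genes 21 rose, none fell and 13 did not pass, with 4 negative log2 fold changes and a median of 0.67. Microglia markers, whose summed level was 2272 to 5885 CPM in WT HI and 7447 to 16060 CPM in KO HI, moved with the list. With their level as a covariate 0 lysosomal genes were called and the median was -0.21, and their part in the result cannot be told apart from genotype. Ctss, the cathepsin S of phagocytes, was at 199.7, 401.1, 193.5 and 147.3 CPM in WT and at 1132, 546.6, 689.3 and 885 CPM in KO, without overlap (log2 fold change 1.79 ± 0.32 SE, edgeR adjusted p = 0.00713). Psap, the precursor of the saposins that help to break down sphingolipids, was among the most abundant of the list, at 1488, 1942, 1379 and 1464 CPM in WT and at 3136, 3186, 2554 and 2467 CPM in KO. It did not overlap either (log2 fold change 0.85, edgeR adjusted p = 0.00547). Npc2, a carrier of lysosomal cholesterol, rose by 0.83 on the log2 scale, and the hexosaminidase subunit gene Hexa by 0.99. The calls of these 4 genes held when any 1 library was left out, while the count over the list was 7 without WT HI 5 and 8 without WT HI 1, WT HI 4 or KO HI 1. 

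Receptors by which phagocytes read immune complexes and microbial patterns rose as well: 15 of 28 tested were called higher and none lower (median log2 fold change 1.11). Those called made up 53.6% of the list, against 5.96% called higher over all genes tested. The high-affinity Fc receptor gene Fcgr1 was at 35.6, 68.9, 36.3 and 34.3 CPM in WT and at 180.5, 71.7, 116.8 and 138.8 CPM in KO. KO HI 2 lay just above WT HI 2, and the log2 fold change was 1.54 (edgeR adjusted p = 0.00869). Clec4a2, an inhibitory lectin receptor, rose by 1.57, and the inhibitory Fc receptor gene Fcgr2b rose by 1.36. The list had 4 called members without WT HI 1, 5 without WT HI 4 or WT HI 5 and 6 without KO HI 1.

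Scavenger and efferocytosis receptors, which bind lipids and dying cells, gave 5 increases and 2 decreases among 22 tested (median log2 fold change 0.57). The bridging protein gene Gas6 and the receptor genes Mertk, Cd68, Cd163 and Mrc1 rose, and Axl and Mfge8 fell. So 31.8% were called, against 12.4% of all genes tested (5.96% higher, 6.46% lower). The count was 1 without WT HI 1, 2 without WT HI 4 or KO HI 1, 3 without WT HI 5 and 9 without KO HI 2 and KO HI 3.

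Antigen presentation and complement were called in part, each list at 36.8%, against 12.4% of all genes tested (5.96% higher, 6.46% lower). Of 19 tested antigen presentation genes 7 rose and none fell (median log2 fold change 0.38). H2-DMa, which loads peptides onto MHC class II, was at 5.26, 9.35, 4.23 and 5.83 CPM in WT and at 24.8, 13.9, 16.6 and 14.3 CPM in KO, without overlap (log2 fold change 1.495, edgeR adjusted p = 0.00596). Of 19 tested complement genes 5 rose and 2 fell. Those that rose were the C1q chains C1qa, C1qb and C1qc, the receptor C5ar2 and the integrin Itgam. Those that fell were C1ra, a protease of the C1 complex, and Cd93, a receptor of endothelial and myeloid cells, with log2 fold changes of -1.32 and -0.92. The complement count was 1 without WT HI 1, WT HI 4 or WT HI 5 and 4 without KO HI 1, and the antigen presentation count was 3 to 4 without any of these 4 libraries. C1ra and Cd93 had adjusted p-values of 0.0738 without WT HI 4 and 0.0931 without WT HI 1.

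Genes that microglia are known to raise around injury went both ways. In this list 45.5% were called, against 12.4% of all genes tested (5.96% higher, 6.46% lower). Of 22 tested, 7 rose (Lpl, Apoe, Cd9, Cd63, Igf1, Cd68 and Tyrobp), 3 fell (Axl, Ch25h and Anxa2) and 12 did not pass, with a median log2 fold change of 0.96. Igf1, a growth factor, was at 34.0, 62.8, 36.6 and 37.1 CPM in WT and at 133.1, 93.7, 106 and 145.5 CPM in KO, without overlap (log2 fold change 1.49, edgeR adjusted p = 0.00547). Apoe, which carries lipid between glia, was at 1737, 2230, 1533 and 1819 CPM in WT and at 4276, 3989, 4735 and 3910 CPM in KO, without overlap (log2 fold change 1.21, edgeR adjusted p = 0.0214). Spp1, osteopontin, was at 1746, 2221, 1852 and 1875 CPM in WT and at 4102, 1465, 2615 and 4056 CPM in KO. KO HI 2 lay below the whole WT group, and the log2 fold change of 0.67 ± 0.81 (SE) did not pass (edgeR adjusted p = 0.580). Without WT HI 1, WT HI 4 or WT HI 5 the list had 1 called member, omission of KO HI 1 left 2, that of KO HI 3 left 4, and that of KO HI 2 and KO HI 3 together gave 6, none of them lower. The adjusted p of Apoe was 0.0727 without WT HI 4.

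Under the same limits, the largest decreases held several genes of activated endothelium. Sele, E-selectin, which slows leukocytes on the vessel wall, was at 54.2, 37.2, 47.8 and 48.3 CPM in WT and at 9.66, 2.25, 9.86 and 9.61 CPM in KO. Even the lowest WT library was far above the highest KO library, and KO HI 2 was the lowest of all. The log2 fold change was -2.58 ± 0.37 (SE; edgeR adjusted p = 0.00519), and without KO HI 2 and KO HI 3 it was -2.28 (adjusted p = 0.00658). Selp, P-selectin, which endothelial cells and platelets store and release, was at 81.1, 76.0, 104.9 and 114.4 CPM in WT and at 25.9, 4.20, 22.1 and 26.8 CPM in KO. Here too the groups did not overlap and KO HI 2 was lowest (log2 fold change -2.25, edgeR adjusted p = 0.0112). Ackr1, the chemokine-binding receptor of venules, was tight in both groups: 220.4, 184.8, 176.7 and 197.6 CPM in WT and 77.0, 70.6, 84.5 and 70.5 CPM in KO. Its log2 fold change was -1.37 ± 0.13 (SE), with an edgeR adjusted p of 0.000717, and it was not above 0.00615 when any 1 library was left out.

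Of 17 tested genes of leukocyte adhesion 3 rose and 3 fell, against 5.96% and 6.46% of all genes tested. Those that fell were the endothelial genes Sele, Selp and Icam2, and those that rose were the leukocyte genes Selplg, which encodes the ligand of P-selectin, and the integrin chains Itgam and Itgb2. Selplg was at 18.8, 65.7, 19.1 and 20.0 CPM in WT and at 256.3, 125.5, 99.8 and 97.4 CPM in KO, without overlap (log2 fold change 2.23, edgeR adjusted p = 0.0106). Leaving out WT HI 1, WT HI 4 or WT HI 5 gave 3 called genes, and leaving out KO sham 1 gave 10. Icam2 was the least secure, with an adjusted p of 0.0468 that was above 0.05 in 11 of 15 fits, up to 0.115 without WT HI 5.

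**Figure D3:**
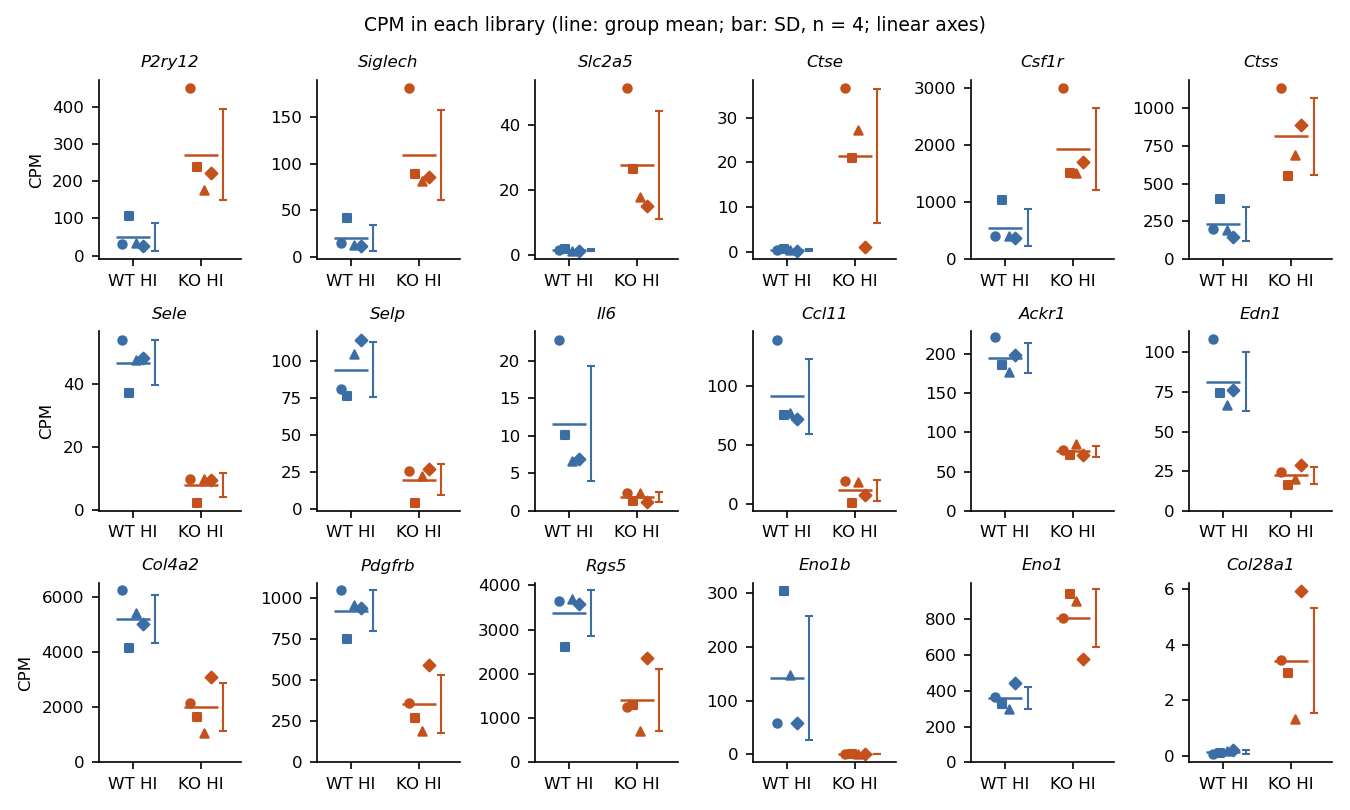
CPM in each HI library on linear axes for genes named in the text, with 1 symbol per library, a line at the group mean and a bar of 1 SD (n = 4) on either side. P2ry12, Slc2a5, Csf1r and Ctss are higher in every KO library than in any WT library, and Sele, Selp, Il6, Ackr1, Col4a2 and Pdgfrb are lower.

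Soluble signals split by gene. Of 33 tested cytokine and chemokine ligands 4 fell (Il6, Ccl11, Cxcl1 and Lif), 3 rose (Ccl12, Pf4 and Ccl24) and 26 did not pass. The share called was 21.2%, against 12.4% of all genes tested. Il6, the cytokine that drives the acute phase, was at 22.8, 10.2, 6.65 and 6.85 CPM in WT and at 2.37, 1.38, 2.42 and 1.17 CPM in KO. WT HI 1 was the highest, the groups did not overlap, and the log2 fold change was -2.66 ± 0.52 (SE; edgeR adjusted p = 0.00957). Ccl11, the eosinophil chemoattractant eotaxin, was at 139.5, 75.9, 77.1 and 72.6 CPM in WT and at 19.3, 1.09, 19 and 7.99 CPM in KO, without overlap (log2 fold change -2.95, edgeR adjusted p = 0.0145). Cxcl1, a neutrophil chemoattractant, was at 47.2, 16.8, 16.01 and 16.4 CPM in WT and at 5.26, 2.76, 3.51 and 8.83 CPM in KO, with WT HI 1 far above the rest (log2 fold change -2.24, edgeR adjusted p = 0.0167). Without WT HI 1 the adjusted p was 0.0534 for Ccl11, 0.0639 for Cxcl1 and 0.0402 for Il6. Over the list the count was 2 without WT HI 1, 4 without WT HI 4, WT HI 5 or KO HI 1, 12 without KO HI 2 and 13 without KO sham 1.

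Ccl12, a monocyte chemoattractant, was at 37.2, 44.0, 22.7 and 24.7 CPM in WT and at 132.5, 34.9, 120.1 and 111.6 CPM in KO. KO HI 2 lay within the WT range and the other 3 KO libraries well above it (log2 fold change 1.63, edgeR adjusted p = 0.0147; 0.0586 without WT HI 5). Among 30 tested receptors 9 rose and 3 fell, so 40% were called, against 12.4% of all genes tested (5.96% higher, 6.46% lower). The 3 that fell were Ackr1, the interleukin-1 receptor gene Il1r1 and Osmr, the oncostatin M receptor gene, with log2 fold changes of -1.37, -1.05 and -1.32. Csf1r and Cx3cr1 were among the 9 that rose. Receptor counts were 4 without WT HI 1, 5 without WT HI 4 or WT HI 5 and 6 without KO HI 1, and Osmr had an adjusted p of 0.0564 without WT HI 1.

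Of 16 tested acute phase genes 3 fell (Lrg1, Cebpd and Stat3) and none rose, with a median log2 fold change of -0.87. The share called was 18.8%, against 12.4% of all genes tested (6.46% lower). Lrg1, a glycoprotein that inflamed endothelium secretes, was at 59.1, 52.4, 74.2 and 77.0 CPM in WT and at 21.6, 10.1, 19.7 and 16.7 CPM in KO. The groups were far apart, the log2 fold change was -1.95 ± 0.22 (SE; edgeR adjusted p = 0.00318), and the call was kept when any 1 library was left out. Lcn2, lipocalin 2, did not overlap between groups, at 122.4, 112.4, 99.6 and 109.3 CPM in WT and at 59.6, 16.9, 58.0 and 61.6 CPM in KO, and did not pass the test (log2 fold change -1.18, edgeR adjusted p = 0.0519). Without any one of the WT HI 1, WT HI 4, WT HI 5, KO HI 1, KO HI 2 or KO HI 3 libraries only 1 member was called, while the count was 5 without KO sham 1, 7 with KO HI 4 left out and 1 with KO HI 2 and KO HI 3 left out. Cebpd, a transcription factor of the acute phase, had an adjusted p of 0.101 without WT HI 1. Stat3, the transcription factor of the pathway, had an adjusted p of 0.142 without WT HI 1.

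Of 20 tested genes of the NF-κB pathway 1 was called, which is 5% against 12.4% of all genes tested. It was Ptgs2, cyclooxygenase 2, which was at 170.4, 126.7, 145.5 and 154.3 CPM in WT and at 50.5, 25.1, 30.1 and 70.3 CPM in KO, without overlap (log2 fold change -1.76, edgeR adjusted p = 0.00695). Without KO sham 1 the count was 4 and without KO sham 4 it was 2. Early response genes, which cells switch on within minutes of a stimulus or of handling, gave 4 decreases (Nr4a2, Fosl2, Nr4a1 and Klf4) among 20 tested and no increase. That is 20% called, against 12.4% of all genes tested (6.46% lower). Fosl2, a subunit of the AP-1 factor, was at 216.2, 112.2, 125.1 and 120.2 CPM in WT and at 48.8, 29.5, 42.4 and 51.9 CPM in KO, without overlap (log2 fold change -1.73, edgeR adjusted p = 0.00547). Nr4a1 and Klf4 lost their calls in 9 and 11 of 15 fits, with adjusted p-values of 0.116 and 0.142 without WT HI 1. The count was 2 without WT HI 1, WT HI 4, WT HI 5, KO HI 1, KO HI 2, KO HI 3, the pair KO HI 2 and KO HI 3, or any WT sham library.

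Pdgfrb, the marker by which the cells are named, was at 1049, 751.4, 959.5 and 940 CPM in WT and at 363.8, 272.1, 193.7 and 596.3 CPM in KO. The groups did not overlap, and KO HI 4 lay nearest to WT. The log2 fold change was -1.38 ± 0.35 (SE; edgeR adjusted p = 0.0246), and the call was lost in 6 of 15 fits that left out 1 library, with an adjusted p of 0.0748 without WT HI 1. Without KO HI 2 and KO HI 3 it was -0.95 (adjusted p = 0.151). All 20 pericyte markers had negative log2 fold changes and 7 of them passed the test, with a median log2 fold change of -1.10. Their mean level was 7.57 ± 0.22 (SD, n = 4) in WT and 6.37 ± 0.65 (SD, n = 4) in KO on the log2(CPM + 1) scale. Rgs5, a regulator of G protein signalling that is abundant in pericytes, was at 3639, 2610, 3689 and 3587 CPM in WT and at 1261, 1307, 712 and 2364 CPM in KO (log2 fold change -1.26, edgeR adjusted p = 0.0313). The pericyte count was 0 without WT HI 1 and without KO HI 2 and KO HI 3 together. It was 1 without WT HI 4, WT HI 5, KO HI 1, KO HI 2 or KO HI 3, 11 without KO sham 4, 16 without KO sham 1 and 18 without KO HI 4.

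Smooth muscle markers gave 5 decreases among 15 tested, Acta2, Actg2, Cald1, Des and Smtn, and fibroblast markers gave 2 among 15, Fbln1 and Mgp. The shares called in these lists were 33.3% and 13.3%, against 12.4% of all genes tested (6.46% lower). Their medians were -0.99 and -1.07 on the log2 scale, close to that of the pericyte list. Neither list had a called member without WT HI 1, WT HI 4, WT HI 5, KO HI 1 or KO HI 3, or without KO HI 2 and KO HI 3 together. The smooth muscle count was 1 without a WT sham library, 2 without KO sham 3 or KO HI 2, and 9 without KO sham 1, KO sham 4, WT HI 2 or KO HI 4. The fibroblast count was 1 without WT sham 1 or KO HI 2, while omission of KO sham 1 gave 6 and that of KO HI 4 gave 11.

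Endothelial markers were present throughout, with a summed level of 11470 to 14790 CPM in WT HI and 3711 to 7337 CPM in KO HI, and 12 of 20 tested fell while none rose. The median log2 fold change was -1.0, and 19 of the 20 did not overlap, against 11.5% of all genes tested. Vwf, von Willebrand factor, was at 3210, 2457, 3061 and 3017 CPM in WT and at 1346, 1253, 871.8 and 1415 CPM in KO (log2 fold change -1.27, edgeR adjusted p = 0.0153). Pecam1, which joins endothelial cells to one another, was at 953.2, 691, 838.8 and 823.6 CPM in WT and at 411.4, 332.8, 220.6 and 419.7 CPM in KO (log2 fold change -1.26, edgeR adjusted p = 0.0170). In both genes KO HI 3 was the lowest library. Without WT HI 1 no endothelial marker was called, with adjusted p-values of 0.0527 for Vwf and 0.0592 for Pecam1. Without WT HI 4 or WT HI 5 the count was 1, without KO HI 1 or KO HI 3 it was 2, without a WT sham library 6 to 7 and without KO HI 2 it was 7. None was called without KO HI 2 and KO HI 3 in the fit of all groups, and 17 were in the fit of the 2 HI groups without those libraries.

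Among signals between pericytes and endothelium 18 of 29 tested fell and none rose, with a median log2 fold change of -1.02. Those called made up 62.1% of the list, against 6.46% called lower over all genes tested. Edn1, the vasoconstrictor endothelin 1, was at 108.6, 74.5, 67.0 and 76.1 CPM in WT and at 24.5, 16.4, 20.4 and 28.7 CPM in KO, without overlap (log2 fold change -1.86 ± 0.31 SE, edgeR adjusted p = 0.00592). S1pr1, the receptor by which endothelium keeps its barrier, was at 232.6, 190, 192.5 and 187 CPM in WT and at 132.7, 116.3, 142.9 and 126 CPM in KO (log2 fold change -0.63, edgeR adjusted p = 0.00809). Cdh2, the N-cadherin of contacts between pericytes and endothelium, was at 172.3, 144.9, 165.2 and 145.7 CPM in WT and at 104.7, 100.4, 94.2 and 110 CPM in KO (log2 fold change -0.62, edgeR adjusted p = 0.00596). These 3 genes and the Notch target Hey1 kept their calls when any 1 library was left out. The other calls in this list included both VEGF receptor genes Kdr and Flt1, the Notch ligand gene Dll4 and the Notch receptor genes Notch1 and Notch3. The count was 4 without WT HI 1, 5 without WT HI 4, KO HI 1 or KO HI 3, 6 without WT HI 5 and 10 without KO HI 2, and it was 5 without KO HI 2 and KO HI 3.

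All 24 tested genes of the basement membrane and matrix had negative log2 fold changes, and 12 passed (median log2 fold change -1.12). Col4a2, a chain of collagen IV, was at 6235, 4124, 5415 and 4997 CPM in WT and at 2156, 1655, 1067 and 3105 CPM in KO, without overlap (log2 fold change -1.38, edgeR adjusted p = 0.0211). Fn1, fibronectin, was at 8576, 6659, 7687 and 7276 CPM in WT and at 3960, 2662, 2182 and 4292 CPM in KO, without overlap (log2 fold change -1.21, edgeR adjusted p = 0.0212). The list also had Tnc, tenascin C, a matrix protein of injured tissue, at -1.58. Without WT HI 1 no member was called, and Col4a2, Fn1 and Tnc had adjusted p-values of 0.0693, 0.0684 and 0.0505. The count was 1 without WT HI 4, WT HI 5 or the pair KO HI 2 and KO HI 3, 3 with KO HI 1 left out, 4 with KO HI 3 left out, 19 with KO HI 4 left out and 20 with KO sham 1 left out.

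Of 23 tested matrix proteases and their inhibitors 6 fell and none rose (median log2 fold change -0.38). The share called was 26.1%, against 12.4% of all genes tested (6.46% lower). Adamts4, which cleaves proteoglycans, was at 177.9, 107.1, 112.5 and 111.9 CPM in WT and at 27.4, 14.2, 30.3 and 41.6 CPM in KO, with the largest decrease of the list (log2 fold change -2.17, edgeR adjusted p = 0.00547). Its groups did not overlap and its call was kept when any 1 library was left out, while the count of the protease list was 2 without WT HI 1 and 3 without WT HI 5. Without KO HI 2 and KO HI 3 the list had 2 higher and 2 lower.

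For the blood-brain barrier, 5 of 24 tested genes fell (Jam2, Tjp1, Slc2a1 and Cav1 among them), and the other 19 did not pass. The share called was 20.8%, against 12.4% of all genes tested (6.46% lower). The median log2 fold change was -0.71, and 18 of the 24 had KO values below all WT values, against 11.5% of all genes tested. Slc2a1, the glucose transporter of brain capillaries, was at 1910, 1425, 1146 and 1172 CPM in WT and at 871, 786.8, 516.6 and 720.8 CPM in KO (log2 fold change -0.97, edgeR adjusted p = 0.0303). Jam2, a junctional adhesion molecule, was at 119, 118.5, 133.7 and 142.7 CPM in WT and at 91.9, 98.3, 90.8 and 83.9 CPM in KO (log2 fold change -0.49, edgeR adjusted p = 0.0180). The count was 0 without WT HI 4, WT HI 5 or KO HI 1, 1 without WT HI 1, KO HI 3 or the pair KO HI 2 and KO HI 3, 3 without a WT sham library and 16 without KO sham 1. The adjusted p was 0.105 for Slc2a1 without WT HI 1 and 0.0587 for Jam2 without WT HI 5.

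**Figure D4:**
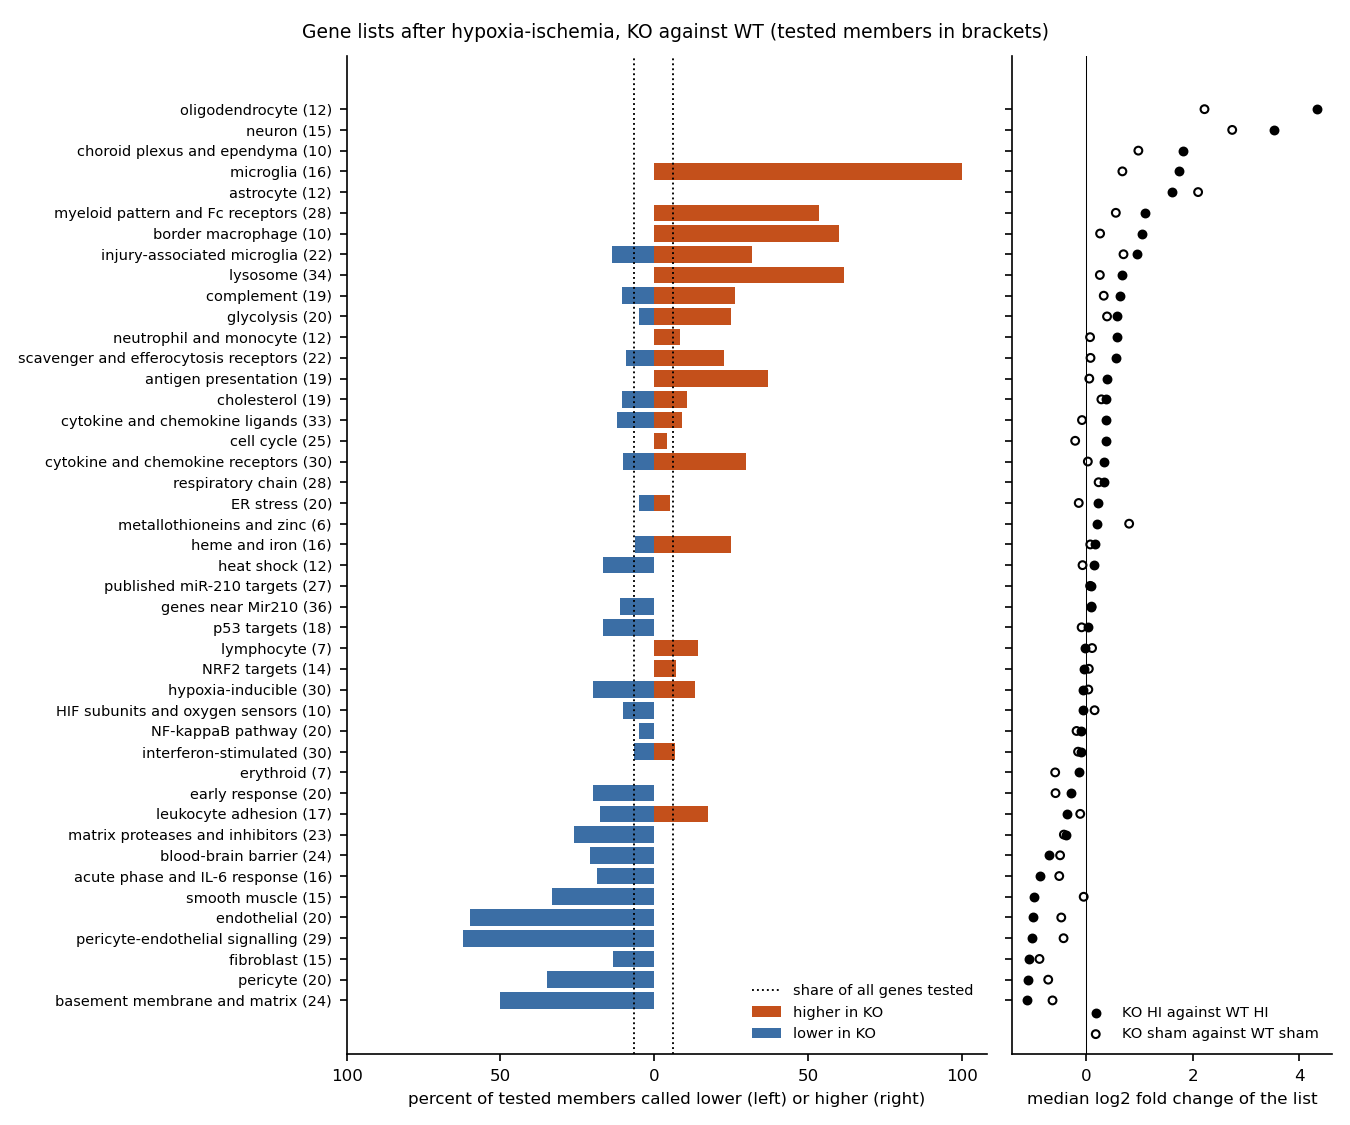
Left, percent of the tested members of each gene list called lower (blue) or higher (orange) in KO HI, with dotted lines at the shares of all genes tested (5.96% higher, 6.46% lower); right, the median log2 fold change of each list after HI (filled) and in sham (open). The microglia, lysosome and myeloid receptor lists have calls to the higher side alone, and the pericyte, endothelial, basement membrane and pericyte-endothelial signalling lists to the lower side alone.

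Some genes were also expressed as a percent of the summed CPM of the markers of a cell type in the same library, a scale and a choice of genes made after the values were seen and given as a description without a test. A gene that was itself on the marker list, as Cldn5, P2ry12, Siglech and Pdgfrb were, was left out of the sum. On the scale of endothelial markers Sele was at 0.366, 0.324, 0.367 and 0.379% in WT and at 0.135, 0.0336, 0.266 and 0.131% in KO, so the groups did not overlap on this scale either. Ccl11 and Ptgs2 were likewise lower in every KO library on this scale. On the scale of pericyte markers Ccl11 overlapped, at 0.0320 to 0.896% in KO and 0.763 to 1.38% in WT. Selp, Ackr1, Edn1, Il6, Lrg1, Dll4, Icam1, Icam2 and Slc2a1, in contrast, overlapped on the endothelial scale, with Ackr1 at 0.961 to 2.28% in KO and 1.36 to 1.61% in WT. Vcam1, a vascular adhesion molecule, was higher in every KO library on this scale, at 1.27 to 3.08% against 0.786 to 1.24% in WT. The tight junction gene Cldn5 was at 14.96 to 17.28% in KO and 12.1 to 14.6% in WT. The summed endothelial markers were lower in KO (3711 to 7337 CPM, against 11470 to 14790 CPM in WT). A higher percent of Vcam1 or Cldn5 therefore need not be a higher CPM. No endothelial marker, Cldn5 included, was called higher in CPM.

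On the scale of microglia markers P2ry12, itself one of them, was at 1.29, 1.84, 1.47 and 1.21% in WT and at 2.89, 3.29, 2.03 and 2.30% in KO. Siglech and Slc2a5 were also higher in every KO library on this scale. Ctse overlapped, with KO HI 4 at 0.0113% and the WT libraries at 0.00748 to 0.0217%. The lysosomal protease Ctsd, the lectin Lgals3 and the tetraspanin Cd63 were lower in every KO library as a percent of these markers. Ctsd had means of 62.6 ± 6.8% (SD, n = 4) in WT and 43.1 ± 6.2% (SD, n = 4) in KO. The summed markers were higher in KO (7447 to 16060 CPM, against 2272 to 5885 CPM in WT), so a lower percent need not be a lower CPM. Cd63 itself was called higher in CPM. Spp1 averaged 67.4 ± 20.1% in WT and 28.9 ± 9.0% in KO (SD, n = 4), and its groups overlapped through WT HI 2 and KO HI 4. Per unit of pericyte marker, Pdgfrb was at 10.8 to 11.7% in WT and 8.65 to 10.3% in KO, so it was lower in every KO library, whereas Fn1 overlapped.

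Genes of the hypoxia response were followed as a group. In the hypoxia-inducible list 33.3% were called, against 12.4% of all genes tested (5.96% higher, 6.46% lower). Among 30 tested hypoxia-inducible genes 4 rose (Pdk1, P4ha1, Hk2 and Pfkfb4), 6 fell (Slc2a1, Adm, Ddit4, Plod2 and Angptl4 among them) and 20 did not pass, with a median log2 fold change of -0.06. Pdk1, which holds pyruvate back from the mitochondrion, was at 62.1, 72.5, 67.4 and 70.1 CPM in WT and at 109.5, 98.2, 91.6 and 111.1 CPM in KO (log2 fold change 0.59 ± 0.095 SE, edgeR adjusted p = 0.00547). Ddit4, a stress-induced inhibitor of mTOR, went the other way, at 93.1, 60.6, 59.4 and 66.2 CPM in WT and at 26.3, 30.7, 42.8 and 34.8 CPM in KO (log2 fold change -1.05, edgeR adjusted p = 0.00637). Neither gene overlapped between groups or lost its call when any 1 library was left out. The count was 5 without WT HI 1, WT HI 4 or WT HI 5, 6 without KO HI 1 or the pair KO HI 2 and KO HI 3, and 15 without KO sham 1.

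Of 10 tested genes of the HIF subunits and oxygen sensors only Epas1, which encodes HIF-2α, was called (10%, against 12.4% of all genes tested). It was at 2086, 1640, 1927 and 1851 CPM in WT and at 924.6, 958, 602.5 and 1153 CPM in KO, without overlap (log2 fold change -1.04, edgeR adjusted p = 0.0135, 0.0518 without WT HI 1). Glycolytic genes gave 5 increases among 20 tested (Hk2, Hk3, Tpi1, Eno1 and Pkm) and 1 decrease, Eno1b. So 30% were called, against 12.4% of all genes tested (5.96% higher, 6.46% lower). Hk2, a hexokinase, was at 27.0, 63.1, 28.9 and 27.8 CPM in WT and at 134.7, 68.1, 90.3 and 112.2 CPM in KO (log2 fold change 1.46, edgeR adjusted p = 0.0130, 0.0556 without WT HI 5). The glycolysis count was 1 without WT HI 1 or WT HI 4, 2 without WT HI 5, 3 without KO HI 1 or KO HI 3 and 11 without KO sham 1. All 28 genes of the respiratory chain had positive log2 fold changes, up to 0.89 with a median of 0.33, and none passed the test. In 10 of the 28 every KO value lay above every WT value, against 9.89% of all genes tested. Leaving out KO sham 1 gave 7 calls in this list, and leaving out KO HI 4 gave 1. Without the 5 libraries rich in neuron markers 3 were called, and the median was 0.07.

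Of the published targets of miR-210, 0 of 27 tested were called by edgeR, and the median log2 fold change was 0.09 against 0.06 over all genes tested. DESeq2 called 2 of them, limma-voom 1, and the edgeR fit of the 2 HI groups alone 3. Of the 27, 4 did not overlap with KO higher and 1 with KO lower, against 9.89% and 11.5% of all genes tested. Without KO sham 1 edgeR called 6, and without KO sham 4, KO HI 2, KO HI 4 or the pair KO HI 2 and KO HI 3 it called 1. Gpd1l, whose sites are printed above, was at 63.2, 69.6, 71.4 and 68.1 CPM in WT and at 90.3, 79.0, 108.6 and 91.6 CPM in KO. Every KO library was above every WT library, and the log2 fold change of 0.44 ± 0.19 (SE) did not pass (edgeR adjusted p = 0.128). Acvr1b showed the same arrangement, at 30.3, 37.8, 30.7 and 33.2 CPM in WT and at 40.2, 47.6, 48.7 and 41.2 CPM in KO (log2 fold change 0.43, edgeR adjusted p = 0.101). The other 4 published targets with a site did not pass either. Kcmf1 was at 72.5, 69.8, 63.0 and 64.6 CPM in WT and at 63.0, 62.4, 65.6 and 61.9 CPM in KO, with overlap (log2 fold change -0.09, edgeR adjusted p = 0.415). Efna3 was at 1.83, 1.14, 1.86 and 1.64 CPM in WT and at 1.07, 1.78, 3.39 and 1.68 CPM in KO, with overlap (log2 fold change 0.29, edgeR adjusted p = 0.669). Tet2, a DNA demethylating enzyme, and Fgfrl1, a receptor of fibroblast growth factors, had log2 fold changes of -0.38 and 0.53 (edgeR adjusted p = 0.251 and 0.363).

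Over the transcriptome, 3.68% of annotated 3′ UTRs of tested genes held ACGCACA, searched on the transcript strand. Of the 534 genes with a match 27 were higher and 33 lower, so 11.2% were called against 12.5% of the 13961 genes without one. The median log2 fold changes were 0.0613 and 0.0616. Genes with a match had longer 3′ UTRs, with a median of 2760 bases against 1130, and a match is a description of letters and does not show that the site is used. Around the deleted locus itself, on chromosome 7, 36 neighbours of Mir210 were tested: 4 fell and none rose. So 11.1% were called, against 12.4% of all genes tested in either direction and 6.46% called lower. In 7 of the 36 every KO value lay below every WT value and in 1 above, against 11.5% and 9.89% of all genes tested. The 4 that fell were the tetraspanin gene Cd151 and the interferon-induced membrane protein genes Ifitm1, Ifitm2 and Ifitm3. Ifitm1 was at 176.5, 108, 165.9 and 158.7 CPM in WT and at 63.5, 31.4, 42.4 and 74.5 CPM in KO, without overlap (log2 fold change -1.52, edgeR adjusted p = 0.0127). The Ifitm genes resemble one another in sequence, so their counts are uncertain where reads could be shared. The neighbour count was 1 without WT HI 1, WT HI 4 or WT HI 5, 0 without KO HI 2 and KO HI 3, 2 without KO HI 3 and 8 without KO sham 1.

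The same genotype difference in sham libraries gave 2 called genes, 0.0135% of those tested: Col28a1 was higher (0.00673%) and Eno1b lower (0.00673%), and both were called after HI. Eno1b was at 57.6, 304.2, 147.6 and 58.1 CPM in WT HI and at 0.06, 0.23, 0.24 and 0 CPM in KO HI. That is 1008 to 5335 counts in WT HI against 0 to 4 in KO HI, and the fitted log2 fold change was -10.01 (edgeR adjusted p = 0.000165). Eno1b is an intronless copy of Eno1, so reads could be shared between them and both genes are uncertain. Eno1 itself was at 366.3, 327.4, 299.2 and 443.1 CPM in WT and at 804.7, 939.1, 897.8 and 578.1 CPM in KO (log2 fold change 1.16, edgeR adjusted p = 0.0147, 0.0558 without WT HI 4). The sum of both averaged 500.9 ± 93.0 CPM in WT and 805.1 ± 161.4 CPM in KO (SD, n = 4), with 1 KO library, KO HI 4 at 578.1 CPM, below the highest WT library at 631.6 CPM.

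Col28a1, a collagen of glial and nerve sheaths, was at 0.06, 0.11, 0.17 and 0.23 CPM in WT and at 3.45, 2.99, 1.33 and 5.92 CPM in KO (log2 fold change 4.53, edgeR adjusted p = 0.00511), so WT was near 0. Zfp990, a zinc finger gene with close relatives in the genome, was at 1.09, 4.68, 5.07 and 0.45 CPM in WT and at 0.17, 0.06, 0 and 0 CPM in KO (log2 fold change -5.45, edgeR adjusted p = 0.00723). H2-T24, an MHC class I-like gene, was at 3.03, 3.48, 4.29 and 4.08 CPM in WT and at 9.21, 11.7, 10.9 and 13.6 CPM in KO (log2 fold change 1.61, edgeR adjusted p = 0.00583). In all, 192 genes (1.29% of those tested) had all 8 KO libraries of both treatments on 1 side of all 7 WT libraries, and 156 of those were among the genes called after HI, 74 higher and 82 lower. Counts of Zfp990 and H2-T24 are uncertain too, since reads of related genes could be shared. KO HI libraries held 0 to 3 counts of Zfp990, so its fitted fold change depends on the prior count.

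Of the 885 called higher, 854 were higher in the sham comparison, as were 878 of the 959 called lower on the lower side, beside 76.4% with equal signs over all genes tested. The called genes, chosen by the test after HI, had median log2 fold changes of 1.03 and -0.91 after HI and of 0.43 and -0.32 in sham. The sham comparison used 7 other libraries, but the HI and sham comparisons shared 1 estimate of the spread. The difference between them was tested directly, and edgeR called 0 genes, with 768 of the 14853 tested at an unadjusted p under 0.05. DESeq2 called 23 and limma-voom 0. Selp had a log2 fold change of 0.17 in sham and -2.25 after HI, and P2ry12 one of 0.56 in sham and 2.45 after HI. For neither gene was the difference between the comparisons called by edgeR.

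**Figure D5:**
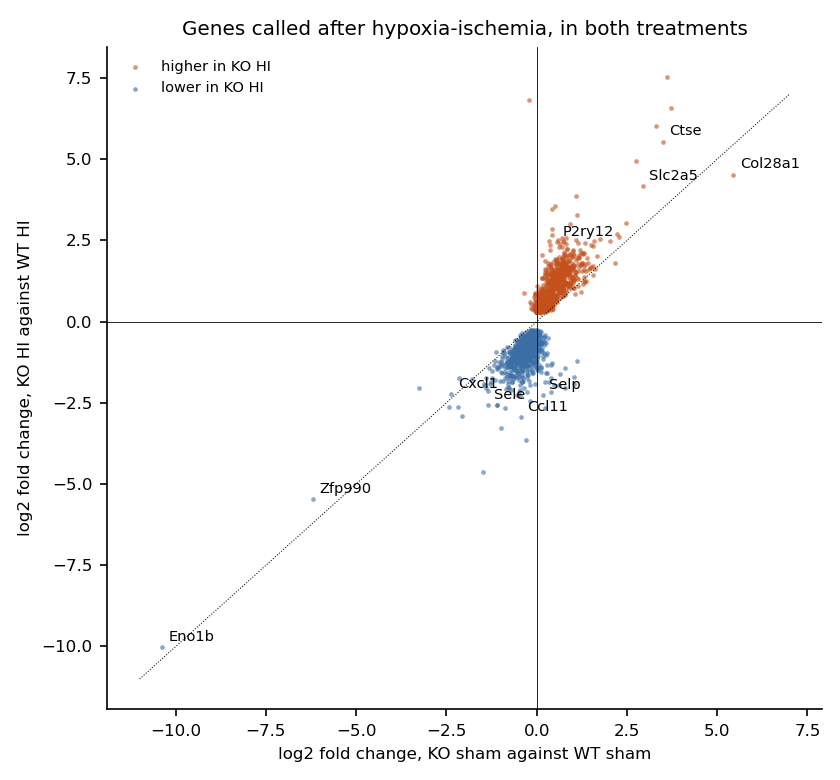
Log2 fold change of KO against WT in sham libraries (x axis) and after HI (y axis) for the 1844 genes called after HI, 1 point per gene, with a dotted line where both are equal. Most points lie on the same side of 0 in both comparisons, and since the genes were chosen by the test after HI, larger values after HI are favoured by that choice; Eno1b and Col28a1, the 2 genes called in sham, lie far out near the dotted line.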

How the data were processed

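RNA was sequenced from 15 libraries, and the authors deposited 1 table of expected counts per gene; that unit was inferred from the values, which were nearly all whole numbers with some fractions. The tools HISAT2 2.1.0, Bowtie2 2.4.4, Bowtie, RSEM 1.3.1 and DESeq2 1.4.5 and the build mm39 were listed per the submitters' processing notes; the role of each tool, and their order, are not given in the sources used here. Of 65535 lines in the table, 47643 were blank in every library. The table could be incomplete, and genes with no line in it were not analysed.

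The expected counts were first made whole by rounding, then filtered with filterByExpr, scaled by TMM and fitted with the quasi-likelihood test of edgeR 4.0.16 (R 4.3.3) as 4 group means over 15 libraries. P-values were adjusted by the Benjamini-Hochberg method over all genes tested at a threshold of 0.05, and the SE is the size of the log2 fold change divided by the root of F. Library totals ran from 15436376 to 18118697, and the biological coefficient of variation was 38.6%. Tested on simulated data with 14755 genes, the fit recovered 60% of 100 genes changed 2-fold and 91% of 100 changed 4-fold. It called 5 unchanged genes. These figures describe the simulated data alone, and whether they hold for the real libraries was not tested. In the real data the KO HI libraries differed more among themselves than the WT HI libraries. Genes of the same cell type were also not independent of each other. DESeq2 1.42.0, limma-voom (limma 3.58.1), other scalings and filters, a replicate block, marker covariates and omission of libraries were alternatives.

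Groups came from the labels. Genes were named by rule: Mir210; the 12 largest changes in each direction among called genes at least 2-fold changed, without overlap and with at least 10 CPM in the higher group, provisional symbols left out; up to 5 members of each list with the smallest p; the 10 largest changes among called genes that separate all KO from all WT libraries; and Pdgfrb. Some genes that the rule names are not reported here. Lif, Ccl24, Osmr, Icam2, C1ra, Cd93, Axl, Anxa2, Pkm, Spp1 and the genes set against marker sums were chosen after their values were seen, as were other members listed by name alone to complete a count. The members and lists were chosen with earlier results of these data known.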

Additional observations from a re-analysis of the deposited data

Results flagged for a closer look

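In 18 of 88 groups of 4 libraries that were examined, 1 library stood far from the other 3 by Dixon's rule on the gap to the nearest library; chance alone gives this in about 1 in 20 groups, and genes of 1 cell type are not independent of each other. WT HI 2 was the library concerned most often, as the highest of its group for P2ry12 (106.2 CPM), Siglech (41.39 CPM), P2ry13 (60.44 CPM), Siglece (7.811 CPM), the crystallin gene Crybb1 (28.57 CPM), Kif21b (83.59 CPM) and Matk (4.504 CPM). Its microglia markers averaged 7.698 and its oligodendrocyte markers 2.329 on the log2(CPM + 1) scale, also the highest of the WT HI group. KO HI 1 stood above the other KO HI libraries for Siglech (181.1 CPM), Siglece (31.31 CPM) and P2ry13 (222.8 CPM).

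WT HI 1 stood above the other WT HI libraries for the chemokine genes Ccl11 (139.5 CPM) and Cxcl1 (47.2 CPM) and for the protease gene Adamts4 (177.9 CPM). KO HI 2 was the low library for Sele (2.245 CPM). KO HI 3 was low for endothelial markers, with a mean of 6.872, and for lymphocyte markers, with a mean of 1.223, both on the log2(CPM + 1) scale.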

How the results depend on the processing

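Against 1844 called genes after HI, DESeq2 called 3383, a fit without the 5 libraries with high neuron markers 3440, the 2 HI groups alone without KO HI 2 and KO HI 3 2813 (chosen after seeing the data), and a fit with microglia markers as a covariate 1. With neuron markers and Ttr as covariates 2304 were called (1314 higher, 990 lower), and 1556 of these were also called in the full fit. Leaving out 1 library gave 481 (without WT HI 1) to 3605 (without KO sham 1). Against 2 called genes in sham, DESeq2 called 32, limma-voom 0, neuron markers and Ttr as covariates 13, microglia markers 1, pericyte markers 5, the fit without neuron-rich libraries 5, the 2 sham groups alone 1, and omission of 1 library 1 to 2. Against 0 genes for the difference of responses, DESeq2 called 23, neuron markers and Ttr as covariates 1, pericyte markers 2, and omission of 1 library 0 to 2. The causes of these shifts were not tested.

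With the replicate number as a block 21 genes were called after HI (3 higher, 18 lower), 1 in sham and 0 for the difference. The numbers were not taken as pairing the libraries: deviations of same-numbered KO HI and WT HI libraries correlated at 0.0414, 0.29 and 0.387 for numbers 1, 2 and 4, and of these KO libraries only KO HI 4 correlated best with its own number. Sele and Ackr1 were among the 21, each with an adjusted p of 0.0444.

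Of 159 named genes called, 1 (Eno1b) kept its call in all 29 other settings and 26 changed direction in some setting. With microglia markers as a covariate the log2 fold change reversed for Actg2 (0.08618), Sall1 (-0.003645), Csf3r (-0.497), Tyrobp (-0.2388), Csf1r (-0.05031), Cx3cr1 (-0.1733), Itgam (-0.2401), Itgb2 (-0.271), Fcgr1 (-0.02438), Cd300c2 (-0.0351), Clec5a (-0.06089), Mertk (-0.3215), Cd68 (-0.3826), Lpl (-0.328), C1qa (-0.08068), C1qb (-0.2102), C1qc (-0.2674), C5ar2 (-0.01922), Cd86 (-0.09885), Cd74 (-0.0002133), Hk2 (-0.177), Hk3 (-0.5461), Pcna (-0.2193), Sdf2l1 (-0.2137), Slc11a1 (-0.2188) and Soat1 (-0.03676). With pericyte markers as a covariate it reversed for Aldh1l1 (-2.239) and Mt3 (-1.947), which had not been called. Csf1r, Cx3cr1, Sall1, C1qa, C1qb and C1qc are on the list that gave the microglia covariate, so a small remaining difference was built into that fit. A reversal was counted by sign alone, whatever its size, and Cd74 (-0.0002133) and Sall1 (-0.003645) hardly differed between the groups in that fit. The cause was not tested. Of 83 named genes not called, 52 were called in some setting.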

Other observations

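Lists of stress and growth genes had called shares of 31.2% for heme and iron, 21.1% for cholesterol, 16.7% each for p53 targets and heat shock, 13.3% for interferon-stimulated genes, 10% for ER stress and 4% for the cell cycle, against 12.4% of all genes tested. Of 18 tested p53 targets 3 fell after HI (Phlda3, Fas and Plk2) and none rose, with a median log2 fold change of 0.03. Phlda3, which restrains Akt at the membrane, was at 41.3, 27.2, 43.0 and 46.1 CPM in WT HI 1, 2, 4 and 5 and at 12.8, 18.4, 16.5 and 21.1 CPM in KO HI 1, 2, 3 and 4. The groups did not overlap (log2 fold change -1.20, edgeR adjusted p = 0.00619), and the call was kept when any 1 library was left out, whereas the p53 count was 1 without WT HI 1, KO HI 1 or KO HI 3 and 5 without KO sham 1. Of 30 tested interferon-stimulated genes Mx1 and Rsad2 rose and Ifi44 and Ifitm3 fell, a share near that of all genes tested (5.96% higher, 6.46% lower). Mx1, an antiviral GTPase, was at 1.66, 3.19, 2.48 and 2.26 CPM in WT and at 6.55, 3.86, 8.59 and 9.67 CPM in KO, without overlap (log2 fold change 1.58, edgeR adjusted p = 0.0106). The interferon count was 1 without WT HI 1 or WT HI 4, 2 without WT HI 5 or KO HI 3 and 7 without KO sham 1.

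Of 16 tested heme and iron genes 4 rose (Slc11a1, Cd163, Ftl1 and Blvra) and Steap3 fell. Slc11a1, the metal transporter of phagosomes, was at 16.7, 41.2, 17.2 and 15.8 CPM in WT and at 101.5, 47.7, 64.0 and 62.2 CPM in KO, without overlap (log2 fold change 1.599, edgeR adjusted p = 0.0128, 0.0544 without WT HI 5). Without WT HI 4 no member was called, without WT HI 1 or WT HI 5 there was 1 and without KO HI 1 there were 3. All 25 tested cell cycle genes had positive log2 fold changes after HI (median 0.36), 1 of them passed (Pcna, adjusted p = 0.0365) and 1 of the 25 had the same sign in sham. That call was lost in 8 of 15 fits, with an adjusted p of 0.138 without WT HI 5. Heat shock genes gave 2 decreases among 12 (Hspb1 and Hspa1b, the latter uncertain because of its near-identical copy Hspa1a), and neither was called without WT HI 1, WT HI 4, WT HI 5, KO HI 1, KO HI 2 or KO HI 3, while 4 members were called without KO sham 1. ER stress genes gave 1 increase (Sdf2l1) and 1 decrease (Asns) among 20, with 7 called without KO HI 2 and KO HI 3, 6 without KO sham 1 and 0 without WT HI 1, WT HI 4, WT HI 5 or KO HI 1. Cholesterol genes gave 2 in each direction among 19, with 0 called without those same 4 libraries and 7 without KO sham 1.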
